A study of Mus musculus with 4 samples.

Results

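The genes described here are those of the cell cycle and of mitosis, taken by symbol: minichromosome maintenance (Mcm), origin recognition (Orc), Cdc, cyclin A, B, D and E, Cdk, Cenp, Aurora kinase, Bub and kinesin (Kif) genes, together with Mki67, Top2a, Birc5, Pcna, Tyms and Rrm2. Of 19938 genes with a single symbol on the array, 148 matched. Where a gene had several probe sets, which was so for 14 members, the probe set with the highest mean over the arrays stood for it. Apart from that choice of probe set, the rule uses no measured value, though members were chosen with earlier results of these data known.

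The levels come from 4 microarrays of total RNA from CCR6+ group 3 innate lymphoid cells (ILC3), lymphocytes that lack rearranged antigen receptors. Naive C57BL/6 mice gave the mesenteric lymph nodes from which the cells were sorted as CD127+ CD90.2+ CCR6+ ST2- cells. All 4 samples belong to this 1 group, the labels name no genotype other than the strain and no treatment, and give no age, so no difference between conditions was tested. Nothing in the labels says whether the samples were separate animals, pools or sorts, so the SDs given, and the p-values of limma where named, rest on variation that may be technical.

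Resting lymphocytes stay out of the division cycle in a state called G0. Replication origins are licensed when the origin recognition complex, with CDC6, loads the MCM helicase, and D-type cyclins with CDK4 and CDK6 drive the step from G1 into S phase by phosphorylating the RB family. Genes needed for S phase are switched on by E2F factors, whereas those needed for G2 and mitosis peak later through B-MYB and FOXM1, and in G0 many of both kinds are held down by the DREAM complex, which is built from p130, E2F4, a DP partner and the LIN proteins. Lymphocytes that divide are known for high levels of Mki67, Top2a, cyclin B and the mitotic kinesins.

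Levels are given on the log2 scale as RMA (robust multi-array average) summarised them for each probe set, so a difference of 1 is a doubling of signal. Binding strength varies from probe set to probe set, and a level is therefore set against background and never against the level of another gene as an RNA amount. Background was set by 1243 receptor genes for smell, pheromones, trace amines and bitter taste. A gene's detection p is the one-sided rank of its mean among these genes, which does not use the spread between arrays, with Benjamini-Hochberg adjustment over every named gene, and genes under 0.05 are called above background, which put the lowest called mean at 6.37. A stricter reading asks for a level above 7.42 on every array, the highest value of any of 15 genes of other organs, of which 4 were themselves called.

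The arrays had median levels of 5.99 to 6.03 over all probe sets. The gate genes Il7r, Thy1 and Ccr6 were called, as were 8 of 8 ILC3 markers and 8 of 8 housekeeping genes. Some markers of other lymph node cells were called too, to be read against 46.2% of all named genes called. Those of NK cells and ILC1 were called in 6 of 10 cases (60%), of dendritic cells and macrophages in 4 of 12 (33.3%) and of ILC2 in 2 of 6 (33.3%). The highest of each list were Ccl5 at 9.81, Lyz2 at 8.22 and Il13 at 6.69. Eomes, Gzmb, Itgax, Csf1r, Klrg1 and Hpgds were among those not called. B cell markers were called in 10 of 11 cases, and the mean of the list on arrays 1 to 4 was 8.66, 7.77, 8.85 and 7.68, T cell markers in 11 of 13 with means of 7.71, 7.70, 7.98 and 7.73, and markers of germinal centre B cells and plasma cells in 5 of 9 with means of 6.95, 6.68, 7.73 and 6.63. Cd4 had the highest mean of the T cell list, at 10.96. Whether the ILC3 themselves gave signal for genes of these lists was not tested, nor was the part of other cells in the levels below. In sorted cells measured in bulk, fewer cells that use a gene and less RNA of it per cell cannot be told apart.

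Of the 148 members, 76 were above background and 72 were not, against 46.2% of all named genes called. The members' share, 51.4%, was thus near that of the array as a whole, and the median member level was 6.41 against 6.16 for all genes. By the stricter reading 39 members passed, against 24.1% of all named genes. In the 8 roles of the division cycle, 37 of 83 members were called (44.6%). Of these 83, 14 passed the stricter reading, and their median level was 6.28. The 3 other roles, mostly of transcription, transport and cell shape, gave 39 of the calls and 25 of the stricter passes. Cyclins and kinases of G1 and of the G1 to S step were called in 6 of 8 cases and origin licensing and firing genes in 12 of 16. The stricter reading was passed by 4 of those 8 and by 3 of those 16, against 24.1% of all named genes. No call was made among the 8 cyclins, kinases and phosphatases of S, G2 and M or among the 11 mitotic kinesins. Differences in share between roles were not tested.

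**Figure D1:**
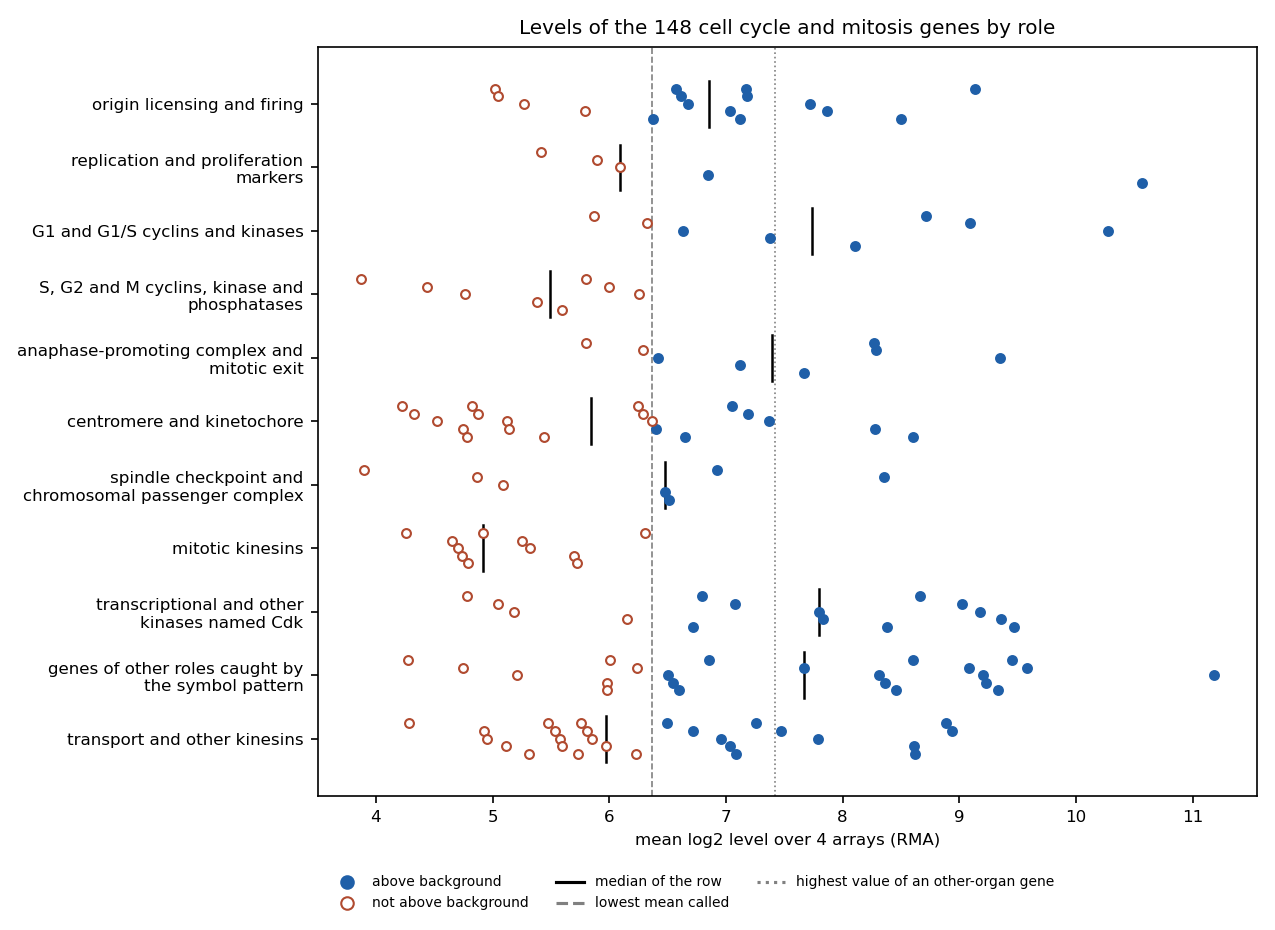
Each point is 1 of the 148 genes, placed at its mean log2 level over the 4 arrays and in the row of its role, filled where the gene was above background and open where it was not. Black bars are row medians, the dashed line is the lowest called mean (6.37) and the dotted line the highest value of a gene of another organ (7.42); the rows for S, G2 and M cyclins and for mitotic kinesins hold open points alone.

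Promoter sequence was examined because it is independent of the array values. The RefSeq table of build GRCm38.p6 held promoters, each running from 250 bases before to 50 after a start, for 128 of the 148 members, 149 promoters in all. Words searched on both strands were the CHR (cell cycle genes homology region, a DREAM and B-MYB element) as TTTGAA, the E2F site as TTTCGCGC, TTTGGCGC, TTTCCCGC or TTTGGCGG, and the CCAAT box of the factor NF-Y as CCAAT. Matches of different words shared bases in 2 of the 149 promoters. A match is a string of letters and no proof of a working site.

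The CHR word stood in 9 of 10 promoters of mitotic kinesins and in 4 of 7 of the spindle checkpoint and chromosomal passenger genes, against 17.9% of all 32851 promoters of the same length. E2F words stood in 8 of 20 promoters of licensing genes, against 2.37% of all promoters. The CCAAT word was found in 6 of 7 promoters of checkpoint and passenger genes and 17 of 23 of centromere and kinetochore genes, against 37.4% overall. Members' promoters had a median GC content of 60.3%, against 52.7% for all promoters, and some genes had several promoters. Within the 8 roles of the division cycle, the CHR word was in 20 of 46 promoters of genes not above background and in 9 of 41 of genes above it, while E2F words were in 8 and 9 of them. Mitotic kinesins, none of them called, gave 10 of those 46 promoters and 9 of the 20 with the CHR word. No test was made of these shares.

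**Figure D2:**
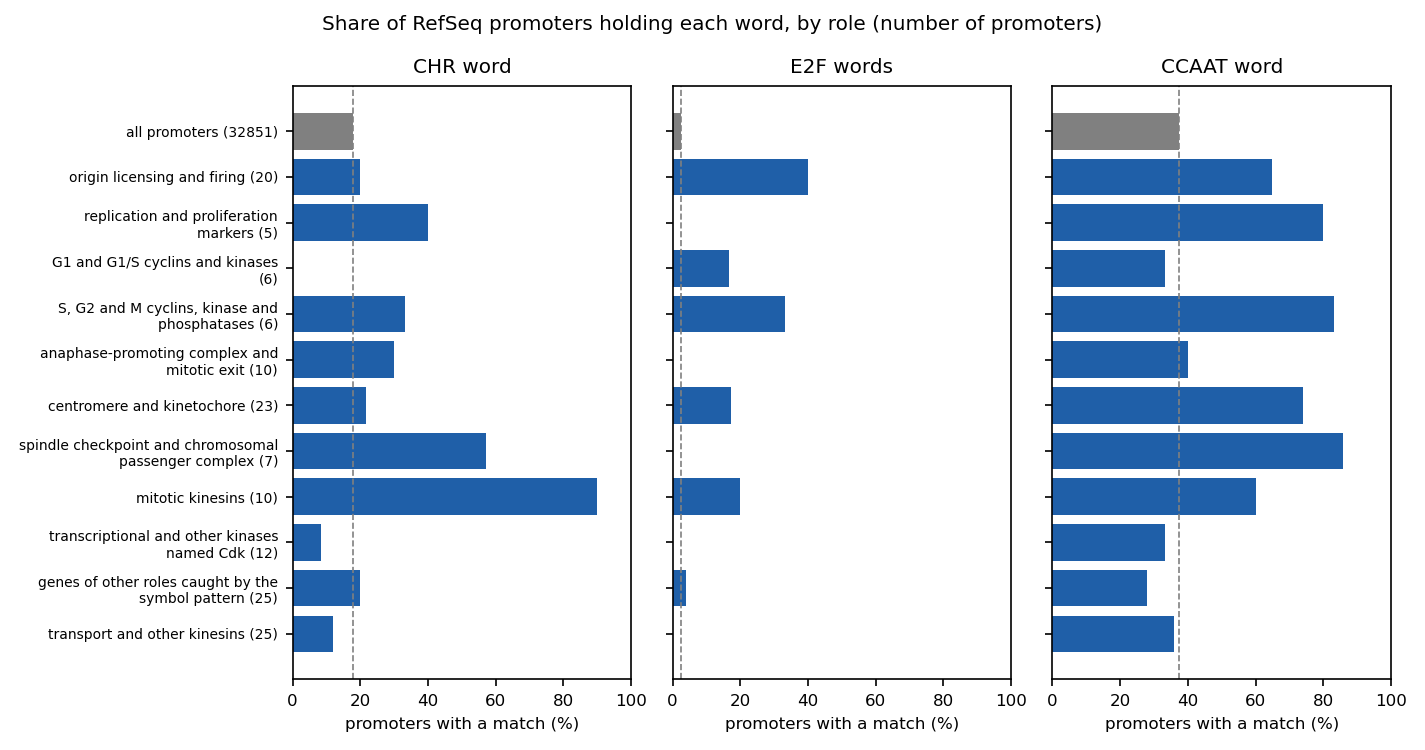
Bars give the percentage of RefSeq promoters with at least 1 match to the CHR, E2F or CCAAT words, for all promoters (grey, with its share repeated as a dashed line) and for each role of the members (blue), with the number of promoters in brackets. The longest CHR bar is that of the mitotic kinesins at 90% and the longest E2F bar that of origin licensing and firing at 40%.

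The 120 bases before the start are shown for 6 members, chosen after the matches were seen, so that promoters of called genes (Mcm6, Pcna and Cdk4) can be read beside those of genes not called (Cdk1, Top2a and Kif11). They are written 5′ to 3′ on the strand of the gene, with every match to the words above in capitals.
Mcm6, chr1:128359706-128359825, minus strand: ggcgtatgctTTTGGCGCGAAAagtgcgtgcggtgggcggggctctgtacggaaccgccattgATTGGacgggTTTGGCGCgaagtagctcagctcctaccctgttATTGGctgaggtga
Pcna, chr2:132253181-132253300, minus strand: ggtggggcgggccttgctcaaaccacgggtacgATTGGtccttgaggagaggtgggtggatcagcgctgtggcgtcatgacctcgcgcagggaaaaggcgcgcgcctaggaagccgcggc
Cdk4, chr10:127063415-127063534, plus strand: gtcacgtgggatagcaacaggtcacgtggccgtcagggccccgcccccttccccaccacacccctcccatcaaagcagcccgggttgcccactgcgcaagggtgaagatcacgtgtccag
Cdk1, chr10:69352913-69353032, minus strand: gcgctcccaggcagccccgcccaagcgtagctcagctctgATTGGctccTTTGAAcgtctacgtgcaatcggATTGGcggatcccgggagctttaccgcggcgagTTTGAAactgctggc
Top2a, chr11:99024190-99024309, minus strand: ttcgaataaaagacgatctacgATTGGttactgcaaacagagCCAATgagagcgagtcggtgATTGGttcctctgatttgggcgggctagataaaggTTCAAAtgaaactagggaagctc
Kif11, chr19:37376262-37376381, plus strand: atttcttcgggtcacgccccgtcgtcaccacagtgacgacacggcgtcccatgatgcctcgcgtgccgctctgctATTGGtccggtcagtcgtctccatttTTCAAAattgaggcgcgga
The Mcm6 stretch holds 3 E2F matches, the first pair of them overlapping, and 2 CCAAT matches. In Cdk1 a CHR match begins 15 bases before the start and a further one 71 bases before it, beside 2 CCAAT matches. Top2a has 1 CHR match 23 bases before the start and 3 CCAAT matches, and Kif11 a CHR match 19 bases and a CCAAT match 45 bases before the start. Pcna carries 1 CCAAT match here, and none of the words occurs in the Cdk4 stretch.

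Of the 8 cyclins and kinases of G1 and of entry into S phase, 6 were called and 4 (Ccnd2, Ccnd3, Cdk4 and Cdk6) passed the stricter reading. Ccnd2, a D-type cyclin that answers growth signals in lymphocytes, was at 10.32, 10.25, 10.35 and 10.20 on arrays 1 to 4 (10.28 ± 0.07, SD, n = 4, as for all errors that follow), and its adjusted detection p was 0.0108. Ccnd3, the D-type cyclin of developing lymphocytes, was at 9.04, 8.56, 8.56 and 8.69 (8.71 ± 0.23). Array 1 was the highest for Ccnd3. Ccnd1, the D-type cyclin better known from epithelia and other non-lymphoid cells, was at 6.49, 6.80, 6.61 and 6.63 (6.63 ± 0.13), called with an adjusted p of 0.0349 but below the stricter line.

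The catalytic partners of the D-type cyclins were called as well. Cdk4 was at 9.22, 8.79, 9.36 and 9.00 (9.09 ± 0.25) and Cdk6 at 7.86, 8.38, 8.02 and 8.15 (8.10 ± 0.22), each with an adjusted detection p of 0.0142. Cdk4 was lowest and Cdk6 highest on array 2. Cdk2, the partner of cyclins E and A, was at 7.48, 7.12, 7.35 and 7.55 (7.38 ± 0.19), called with an adjusted p of 0.0217 but not above the other-organ genes on every array. The E-type cyclins, which act with Cdk2 at the entry to S phase, were not called. Ccne1 lay at 5.77, 6.07, 5.90 and 5.75 (5.87 ± 0.15) and Ccne2 at 6.38, 6.39, 6.39 and 6.13 (6.32 ± 0.13). Ccne2 fell just short, with an adjusted p of 0.052, and passed without array 2 at an adjusted p of 0.0473. It also passed with p adjusted without background genes (adjusted p = 0.0489). Limma's moderated test against the 95th percentile of background called it too (adjusted p = 0.000563).

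Origin recognition and licensing genes were next. In the origin recognition complex 5 of 6 subunits were called. Orc3 was at 9.05, 9.11, 9.26 and 9.11 (9.13 ± 0.09) and Orc4 at 8.59, 8.43, 8.40 and 8.58 (8.50 ± 0.10), both above the genes of other organs on every array. Orc6 differed most between arrays, at 7.60, 8.41, 7.98 and 6.90 (7.72 ± 0.64), high on array 2 and low on array 4. Orc2 at 7.18 ± 0.18 and Orc5 at 6.57 ± 0.11 were called below the stricter line. Orc1, the subunit whose level follows E2F activity in cycling cells, was at 5.05, 5.15, 4.86 and 5.13 (5.05 ± 0.13) and not called, with an adjusted p of 0.231.

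All 6 subunits of the MCM2-7 helicase were called, Mcm6 above the genes of other organs on every array and the other 5 not. Mcm6 was at 7.56, 7.67, 8.16 and 8.06 (7.86 ± 0.29) and Mcm7 at 7.38, 7.16, 7.42 and 6.72 (7.17 ± 0.32). These subunits did not follow 1 order of arrays, since Mcm6 was lowest on array 1 and Mcm7 on array 4. Mcm4 at 7.20, 7.22, 7.19 and 6.86 (7.12 ± 0.17) was low on array 4, while Mcm2 at 6.996, 7.01, 6.83 and 7.30 (7.03 ± 0.20) was high there. Mcm5 was at 6.82, 6.78, 6.48 and 6.62 (6.68 ± 0.16) and Mcm3 at 6.64, 6.61, 6.45 and 6.75 (6.61 ± 0.13), with adjusted p-values of 0.0331 and 0.0403. The stretch of the Mcm6 promoter with its E2F matches is printed above.

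Fewer of the factors that load the helicase or fire the origin were called. Cdc45, part of the active helicase, was at 6.34, 6.82, 6.27 and 6.06 (6.37 ± 0.32), the called member nearest to the threshold, with an adjusted p of 0.0488. Its call was lost without array 2 (adjusted p = 0.0523) and without array 3 (adjusted p = 0.0521), and with olfactory receptor genes alone as background (adjusted p = 0.059). Cdc6, the helicase loader, was at 5.75, 5.93, 5.72 and 5.77 (5.79 ± 0.10) and not called. Cdc7, the kinase that fires origins, was not called either, at 4.94, 5.05, 6.03 and 5.06 (5.27 ± 0.51), with array 3 far above the rest. Mcm10, which joins the replication fork, was at 5.02 ± 0.08 and not called.

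Among the 5 markers of replication and proliferation, Pcna and Tyms were called and Mki67, Top2a and Rrm2 were not. Pcna, the sliding clamp of replication and repair, was at 10.54, 10.55, 10.61 and 10.56 (10.56 ± 0.03). A second probe set named Pcna lay 0.03 lower on each array, so the pair of probe sets gives no second measurement, and signal from near-identical copies of Pcna cannot be told apart. Tyms, the thymidylate synthase, was at 6.75, 7.04, 6.81 and 6.79 (6.85 ± 0.13), called below the stricter line.

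Mki67, which encodes the Ki-67 antigen of dividing cells, was at 5.97, 6.27, 6.25 and 5.87 (6.09 ± 0.20). It was not called, with an adjusted p of 0.0665, but lay above 96.6% of the background genes, and limma's moderated test against the 95th percentile of background called it with an adjusted p of 0.0149. Top2a, a topoisomerase of mitotic chromosomes, was at 5.41, 6.12, 6.07 and 5.98 (5.90 ± 0.33), lowest on array 1. Rrm2, the regulated subunit of ribonucleotide reductase, was also lowest there, at 5.02, 5.60, 5.60 and 5.43 (5.41 ± 0.27). Neither was called, and the second Top2a probe set was lower still at 4.82. Array 1 was the lowest for 4 of the 5 markers, the exception being Mki67.

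**Figure D3:**
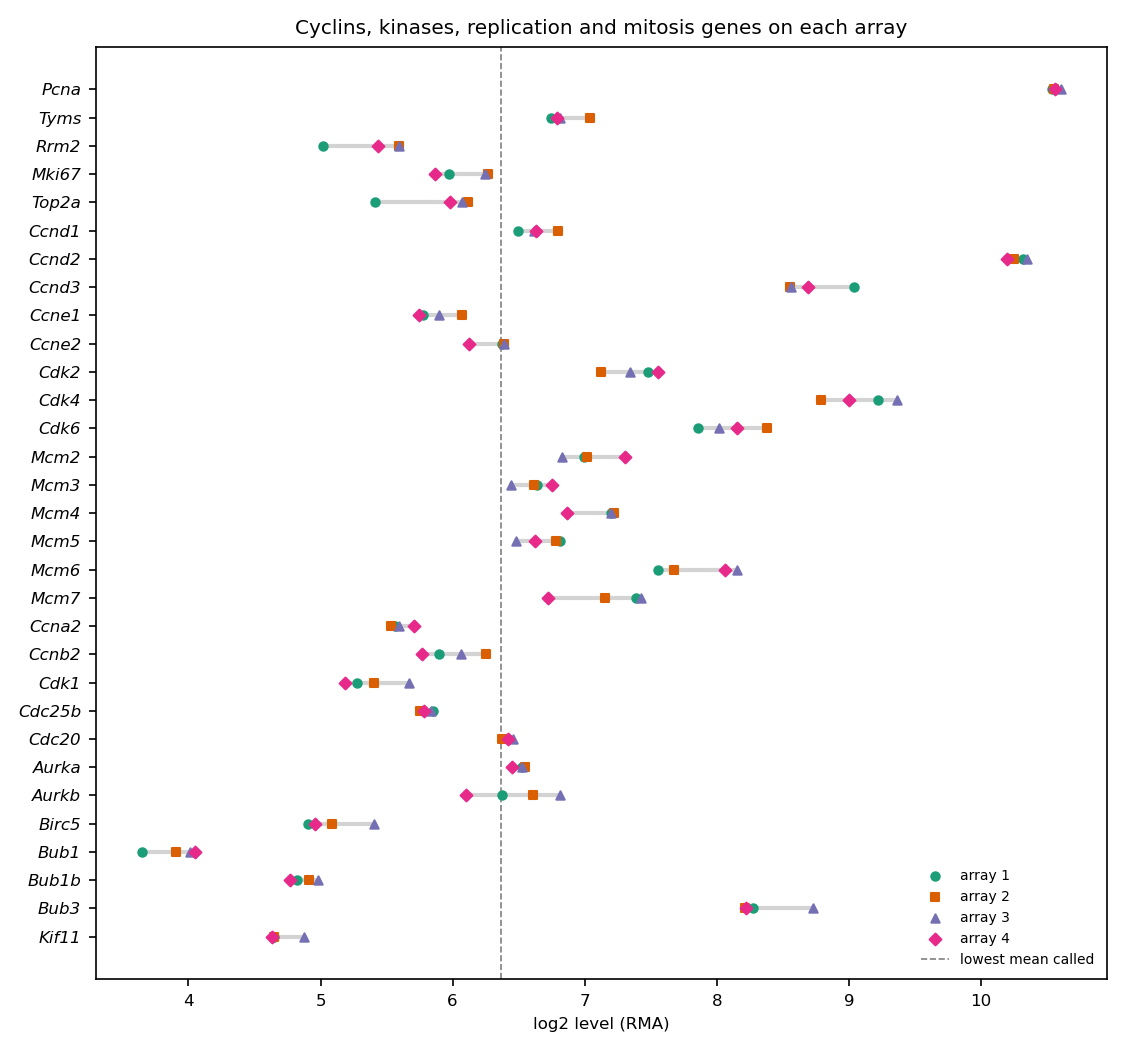
Log2 levels of 31 members fixed by symbol are plotted on each of the 4 arrays, 1 marker per array, with a grey bar from the lowest to the highest and a dashed line at the lowest called mean (6.37). Pcna, Ccnd2, Cdk4 and Ccnd3 lie to the right of the line on all 4 arrays, and Ccna2, Ccnb2, Cdk1, Bub1, Bub1b and Kif11 to its left on all 4.

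Cyclins, kinase and phosphatases of S, G2 and M were called in 0 of 8 cases by the rank test, with 2 at an unadjusted p under 0.05. Limma's test called 1 of them, Cdc25a. Their median level was 5.49, and that of all named genes 6.16. Ccna2, the cyclin of S phase and G2, was at 5.57, 5.53, 5.59 and 5.71 (5.60 ± 0.08). Ccnb2, a cyclin of mitosis, was at 5.90, 6.25, 6.06 and 5.77 (6.00 ± 0.21), and Cdk1, the mitotic kinase, at 5.27, 5.41, 5.67 and 5.19 (5.38 ± 0.21). Array 4 was the lowest for Ccnb2 and Cdk1 and the highest for Ccna2. The CHR matches of the Cdk1 promoter are those printed above.

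The CDC25 phosphatases remove inhibitory phosphates from cyclin-dependent kinases. Cdc25a was at 6.26, 6.20, 6.57 and 5.97 (6.25 ± 0.25) with an adjusted detection p of 0.0545, and it passed without array 2 at 0.0486. Cdc25b was at 5.85, 5.75, 5.84 and 5.78 (5.80 ± 0.05) and Cdc25c at 4.76 ± 0.08. Ccna1, a cyclin of the germ line, was at 4.44 ± 0.02, and Ccnb3, a cyclin of meiosis, was at 3.87 ± 0.05, below most background genes. Ccnb1 is not analysed here.

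Mitotic kinesins, the motors that build the spindle and move chromosomes, were called in 0 of 11 cases by the rank test, with 1 at an unadjusted p under 0.05. Limma's test called that gene, Kif20b, alone. The group's median was 4.91. Kif11, the motor that pushes spindle poles apart, was at 4.65, 4.65, 4.88 and 4.63 (4.70 ± 0.12), above 72.6% of background genes. Kif23, a motor of cytokinesis, was at 5.77, 5.90, 5.63 and 5.59 (5.72 ± 0.14). Kif20b, also of cytokinesis, was at 6.53, 6.32, 6.09 and 6.27 (6.31 ± 0.18) with an adjusted p of 0.052, and passed without array 2 at 0.0473. The remaining 8 mitotic kinesins (Kif2c, Kif4, Kif14, Kif15, Kif18a, Kif18b, Kif20a and Kif22) had means from 4.26 for Kif4 to 5.70 for Kif20a. Kif4-ps, a pseudogene related to Kif4 that fell among the other kinesins by symbol, was at 5.60 ± 0.17 and not called.

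Of 7 genes of the spindle checkpoint and the chromosomal passenger complex 4 were called (57.1%), against 46.2% of all named genes. Bub3, a checkpoint protein that also serves outside mitosis, was at 8.27, 8.21, 8.73 and 8.22 (8.36 ± 0.25), with array 3 above the other arrays. Its kinase partners stood apart from it. Bub1 was at 3.65, 3.90, 4.01 and 4.05 (3.90 ± 0.18), above only 24.3% of the background genes, and Bub1b, which encodes BUBR1, at 4.82, 4.91, 4.98 and 4.77 (4.87 ± 0.09). Birc5, which encodes survivin, was not called at 4.90, 5.09, 5.41 and 4.96 (5.09 ± 0.23).

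The Aurora kinases were called close to the threshold. Aurka, of the spindle poles, was at 6.52, 6.55, 6.52 and 6.45 (6.51 ± 0.04) and Aurkb, the kinase of the passenger complex, at 6.38, 6.61, 6.81 and 6.10 (6.47 ± 0.30), each with an adjusted p of 0.0435. Aurkb was not called without array 3 (adjusted p = 0.0521), and neither was called when olfactory receptor genes alone served as background (adjusted p = 0.0527 each). Aurkc, mostly of the germ line, was at 6.82, 6.78, 7.05 and 7.05 (6.93 ± 0.14). Its other 3 probe sets lay at 5.20 to 6.12, below the threshold, and the mean of all 4 was not called, with an adjusted p of 0.0731.

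Genes of mitotic exit and of the anaphase-promoting complex, the ubiquitin ligase that ends mitosis and also keeps G1 cells from dividing, were called in 6 of 8 cases. That was 75%, against 46.2% of all named genes. The subunit genes Cdc27 and Cdc23 were at 8.32, 8.26, 8.41 and 8.15 (8.28 ± 0.11) and at 8.04, 8.13, 8.53 and 8.38 (8.27 ± 0.22). Cdc16, a further subunit, was at 7.90, 7.25, 8.26 and 7.28 (7.67 ± 0.49), high on arrays 1 and 3 and low on arrays 2 and 4. B cell marker means were also higher on arrays 1 and 3, and their part in the Cdc16 values was not tested. Cdc26 was called at 7.12 ± 0.15.

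Cdc20, the activator of that complex in mitosis, was at 6.42, 6.38, 6.46 and 6.42 (6.42 ± 0.03), called with an adjusted p of 0.0461. Without array 3 its call was lost at an adjusted p of 0.0521, and with olfactory receptor genes alone as background at 0.0558. Of the mitotic exit phosphatases, Cdc14a was at 9.14, 9.32, 9.35 and 9.58 (9.35 ± 0.18) and Cdc14b at 6.11, 6.06, 6.82 and 6.15 (6.28 ± 0.36). Cdc14b was not called, but passed without array 1 or array 2, with adjusted p-values of 0.0483 and 0.0473. Limma's test also called Cdc14b (adjusted p = 0.0144). Cdc20b, a relative of Cdc20 in the symbol list, was at 5.80 ± 0.12.

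Centromere and kinetochore genes were called in 7 of 20 cases (35%), against 46.2% of all named genes. Their median level was 5.84. Cenpo, of the inner kinetochore, was at 8.59, 8.69, 8.52 and 8.63 (8.61 ± 0.07) and Cenpx, which also acts in DNA repair, at 8.15, 8.44, 8.34 and 8.17 (8.27 ± 0.14), and these 2 of the 20 passed the stricter reading. Cenpb, which binds a centromere repeat, was at 7.42, 7.42, 7.35 and 7.27 (7.37 ± 0.07). Cenpc1, which encodes CENP-C of the constitutive kinetochore, was at 7.19 ± 0.16. Cenpt was at 7.05 ± 0.13.

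Cenpa, the histone H3 variant of centromeres, was called at 6.84, 7.02, 6.51 and 6.24 (6.65 ± 0.35), higher on arrays 1 and 2 than on the other two. Cenps, a partner of Cenpx, was called at 6.22, 6.57, 6.27 and 6.55 (6.40 ± 0.18) but not without array 3 or array 4 (adjusted p = 0.0513 and 0.052), nor with olfactory receptor genes alone as background (adjusted p = 0.0575). Cenpn at 6.60, 6.19, 6.34 and 6.31 (6.36 ± 0.17) and Cenpq at 6.46, 6.17, 6.49 and 6.04 (6.29 ± 0.22) lay just short of a call and passed without array 2, with adjusted p-values of 0.0426 and 0.0473. Limma's test also called Cenpn (adjusted p = 0.0011) and Cenpq (adjusted p = 0.004). Cenpe, a motor of the kinetochore, at 4.78 ± 0.08 and Cenpf, of the outer kinetochore, at 4.74 ± 0.04 were not called. The other 9 members not called (Cenph, Cenpi, Cenpk, Cenpl, Cenpm, Cenpp, Cenpu, Cenpv and Cenpw) had means from 4.23 for Cenpi to 6.25 for Cenpm.

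The other 3 groups of the symbol pattern hold mostly genes of transcription, transport and cell shape, with some that also act in the cycle or at the spindle or centriole, such as Cdk7, Cenpj and Kif2b. Of their 65 genes 39 were called (60%), against 46.2% of all named genes. Kinases named Cdk that are not in the groups above were called in 11 of 15 cases. Cdk17 was at 9.47, 9.46, 9.46 and 9.50 (9.47 ± 0.02), and Cdk19, a Mediator kinase, at 9.55, 9.06, 9.49 and 9.35 (9.36 ± 0.22). Cdk12 and Cdk13, kinases of RNA polymerase II elongation, were at 9.09, 9.09, 9.41 and 9.10 (9.17 ± 0.16) and at 9.17, 9.08, 8.94 and 8.91 (9.03 ± 0.12). A second Cdk12 probe set was lower, at 5.64, 6.70, 6.83 and 6.87, with a mean of 6.51. Cdk8 at 8.66 ± 0.21 and Cdk9 at 8.38 ± 0.24 belong to the same transcription machinery. Cdk20 at 6.22, 6.20, 5.94 and 6.24 (6.15 ± 0.14) and Cdk3 at 5.19 ± 0.08 were not called.

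Cdk7, the CDK-activating kinase that also serves transcription factor IIH, had the largest SD of all members, at 6.33, 5.92, 7.13 and 7.50 (6.72 ± 0.72), higher on arrays 3 and 4 than on arrays 1 and 2. Its second probe set lay at 5.97, 6.35, 6.32 and 6.32 (6.24 ± 0.18) and was lowest on array 1, so the pair of probe sets did not order the arrays alike.

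Further genes caught by the pattern were called in 16 of 23 cases (69.6%), against 46.2% of all named genes. Cdc42, a GTPase of cell shape and polarity, was at 11.14, 11.18, 11.17 and 11.25 (11.18 ± 0.05) and its effector gene Cdc42ep3 at 9.39, 9.43, 9.69 and 9.29 (9.45 ± 0.17). Cdc123 was at 9.47, 9.46, 9.52 and 9.85 (9.58 ± 0.19), and Cdc73, of the PAF1 elongation complex, at 9.38, 9.32, 9.38 and 9.25 (9.33 ± 0.06). Cdc40, a splicing factor, was at 7.998, 8.47, 8.35 and 9.00 (8.46 ± 0.42), lowest on array 1 and highest on array 4. Cdc5l, also of splicing, was at 9.23 ± 0.16 from 11 probe sets, of which 6 held identical values and the lowest lay at 7.92, so its level depended on the choice of probe set. Of the Cdc42 effectors not called, Cdc42ep2 at 6.23 ± 0.14 passed without array 2 (adjusted p = 0.0486), and Cdc42ep5 was at 6.01 ± 0.09. Limma's test called Cdc42ep2 (adjusted p = 0.000575) and Cdc42ep5 (adjusted p = 0.0108).

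Kinesins of transport and other work were called in 12 of 27 cases (44.4%), near the 46.2% of all named genes. Kif5b, the heavy chain of conventional kinesin, was at 8.79, 8.92, 9.15 and 8.89 (8.94 ± 0.15), Kif21b at 8.91, 8.53, 9.00 and 9.11 (8.89 ± 0.25) and Kif2a, a microtubule depolymerase, at 8.39, 8.63, 8.79 and 8.68 (8.62 ± 0.17). Kif1c, a cargo motor, was at 7.97, 8.77, 9.08 and 8.63 (8.61 ± 0.47). Its low value on array 1 and its high value on array 3 were shared by its second probe set, at 7.27, 7.68, 8.08 and 7.53. Kif3c at 6.23 ± 0.21 and Kif12 at 5.98 ± 0.07 were not called.

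The members differed between arrays about as much as other genes. The median SD over the 4 arrays was 0.164 for members above background and 0.168 for all genes above background, and an SD over 0.3 was found in 18.4% and 17.9% of them. After Cdk7 and Orc6, the largest SDs of called members were those of Cdc16 (0.49), Kif1c (0.47) and Cdc40 (0.42). Array 3 was the highest of the 4 for 28 of the 76 called members (36.8%), against 25.0% of all called genes. Mean levels of the called members were 7.86, 7.87, 7.96 and 7.87 on arrays 1 to 4. B cell, T cell, plasma cell, ILC2, and dendritic cell and macrophage marker means were also highest on array 3, as was the housekeeping mean. The means of the ILC3 markers, the gate genes and the NK cell and ILC1 markers were highest on other arrays. The part of other cells in this was not tested. When the fit was limited to arrays 2 and 4, where B cell marker means were lowest, 72 members were called and 39 passed the stricter reading. The matching counts over all named genes are not given here. Among named members Aurkb, Cdc20 and Cdc45 lost their call on those arrays alone.

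**Figure D4:**
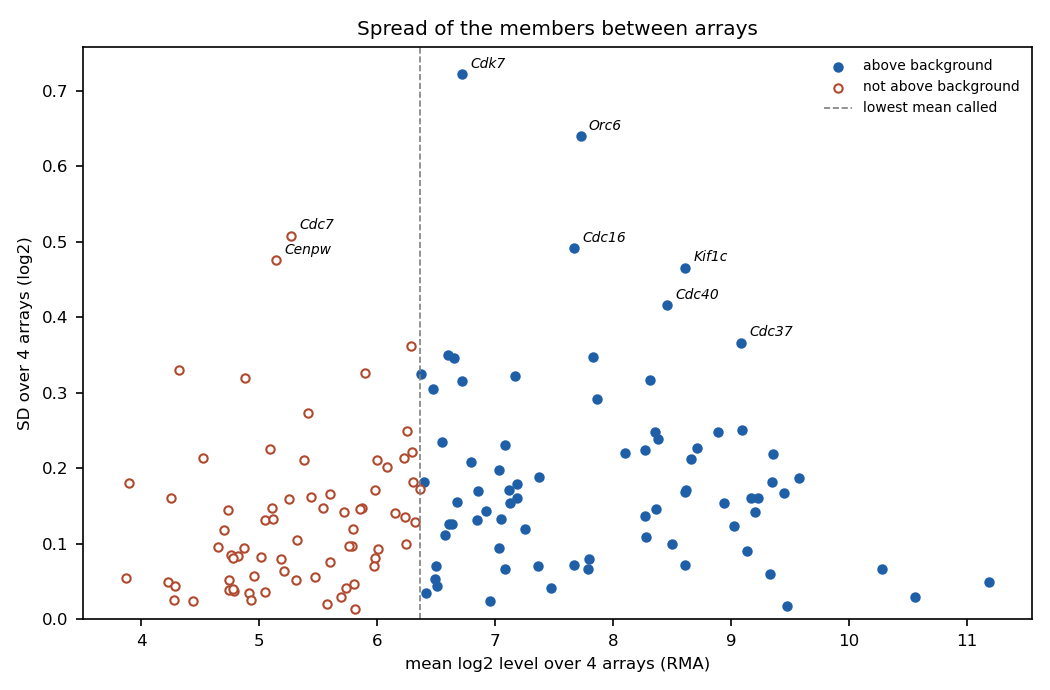
Each point is a member, with its mean log2 level over the 4 arrays on the x axis and its SD over the arrays on the y axis, filled where it was above background (right of the dashed line at 6.37). The 8 members with the largest SDs are named, with Cdk7 at 0.72 and Orc6 at 0.64 on top.

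Other genes of the pathway, listed by function, were read beside the members. Inhibitors of the cycle and regulators of quiescence were called in 19 of 22 cases (86.4%), against 46.2% of all named genes. Above the genes of other organs on every array were 13 of the 22, against 24.1% of all named genes. The median level of the list was 7.64. Cdkn1b, which encodes the CDK inhibitor p27, was at 11.12, 11.21, 11.15 and 11.08 (11.14 ± 0.05). Btg1, an antiproliferative gene, was at 11.19, 10.90, 11.09 and 10.71 (10.97 ± 0.21), and Slfn2, needed for T cell quiescence, at 10.45, 10.65, 10.81 and 10.65 (10.64 ± 0.15). Cdkn2a at 6.01 ± 0.05 and Cdkn1c at 6.00 ± 0.02 were not called. Cdkn1a is not analysed here.

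Of the DREAM components on these lists, E2f5, an alternative to E2f4, was not called at 5.90. Rbl2, which encodes p130, was at 9.84, 10.06, 10.03 and 10.02 (9.99 ± 0.10), its relative Rbl1 at 6.59, E2f4 at 8.78, 8.42, 8.75 and 8.67 (8.65 ± 0.16), and their DP partners Tfdp1 and Tfdp2 at 8.74 ± 0.11 and 8.26 ± 0.26. These were called. Lin9, Lin37 and Lin54 were called at 7.22 ± 0.17, 7.61 ± 0.15 and 7.57 ± 0.16. Lin52 was called at 6.50 ± 0.56 (adjusted p = 0.0435), but not without array 3 (adjusted p = 0.0521), with the mean of its probe sets (adjusted p = 0.0508) or with olfactory receptor genes alone as background (adjusted p = 0.0527). Of the 13 E2F, MYB and FOXM1 factors 5 were called (38.5%), against 46.2% of all named genes. Mybl2, which encodes B-MYB, at 6.35 ± 0.11, E2f7 at 6.09 ± 0.08, Foxm1 at 5.52 ± 0.14 and E2f1 at 5.79 ± 0.04 were not called. Mybl2 fell just short, with an adjusted detection p of 0.0501. It passed without array 1 or array 2 (adjusted p = 0.0483 and 0.0473), and with the mean of all probe sets (adjusted p = 0.0488). Adjustment without background genes also passed it (adjusted p = 0.0472). Limma's test called Mybl2 (adjusted p = 8.34e-05) and E2f7 (adjusted p = 0.00171). Myc, a driver of growth, was called at 9.28, 8.90, 9.79 and 8.04 (9.01 ± 0.74), with array 4 the lowest and array 3 the highest. The B cell marker means ordered the arrays in the same way, and their part in the Myc values was not tested.

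S phase genes outside the symbol rule were called in 13 of 19 cases (68.4%), against 46.2% of all named genes. Above the genes of other organs on every array were 3 of the 19, against 24.1% of all named genes. Without array 3 the calls of Cdt1, Pola1 and Fen1 were lost, which left 10. Tk1, a thymidine kinase, was at 9.19, 8.95, 9.30 and 9.13 (9.14 ± 0.15), and the GINS subunits Gins4 and Gins2 at 8.71 ± 0.22 and 8.06 ± 0.09. Rrm1, the large subunit of ribonucleotide reductase, was at 7.47 ± 0.10. Uhrf1 at 5.98 ± 0.09 and Dbf4, the activator of Cdc7, at 5.75 ± 0.36 were not called.

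Mitosis genes outside the rule were called in 4 of 22 cases (18.2%), against 46.2% of all named genes. The median level of the list was 5.44. Pttg1, which encodes securin, was at 9.30, 9.51, 9.20 and 9.30 (9.33 ± 0.13), the only one of the list above the genes of other organs. Plk4, of centriole duplication, was at 6.89 ± 0.14, Incenp, of the passenger complex, at 6.88 ± 0.13 and Mad2l1, a checkpoint gene, at 6.54 ± 0.29. Without array 3 the call of Mad2l1 was lost (adjusted p = 0.0513). Cdca3 at 6.19 ± 0.18 and Ube2c at 6.01 ± 0.10 were not called. Plk1, the Polo kinase of mitosis, was at 5.53, 5.80, 6.35 and 5.80 (5.87 ± 0.35) and not called.

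**Figure D5:**
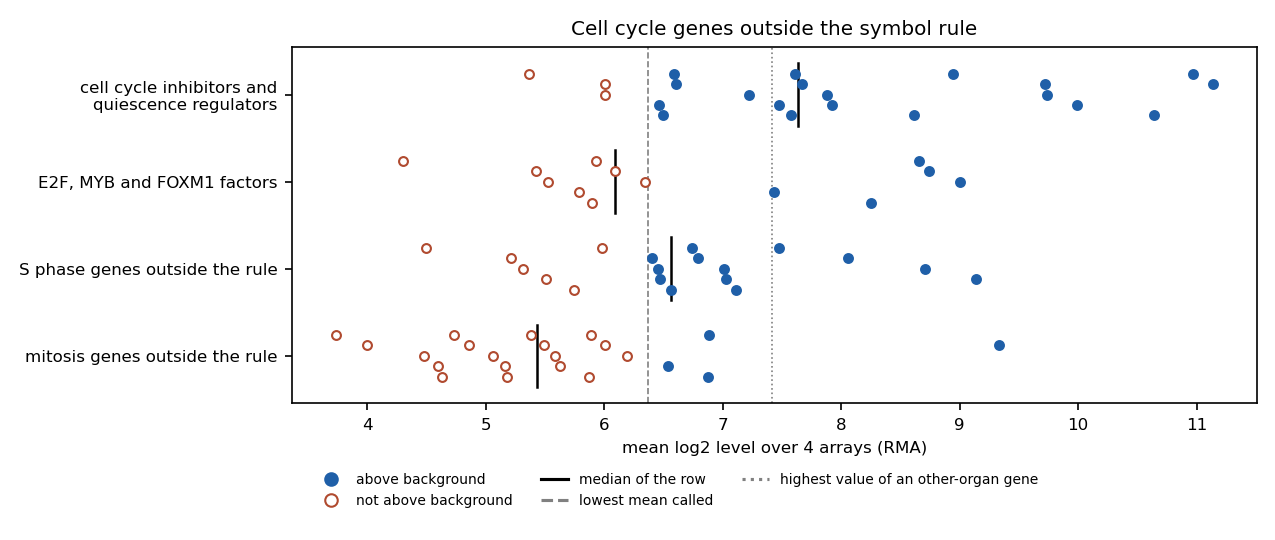
Points are cell cycle genes outside the symbol rule, in 4 rows by function, at their mean log2 level over the 4 arrays, filled where above background. The dashed line is the lowest called mean (6.37), the dotted line the highest value of a gene of another organ (7.42) and black bars are row medians; 19 of 22 inhibitors and quiescence regulators are filled, against 4 of 22 mitosis genes.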

How the data were processed

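RNA of 4 samples of sorted CCR6+ ILC3 was measured on microarrays. The authors deposited a table of log2 levels, which per the submitters' processing notes were made with RMA. Its version, the software and a genome build are not given here. RMA's median polish can give the same value on several arrays, which was so for 19 members, and can make their SD too small. The table held 35556 probe sets. GEO's platform annotation gave 1 symbol for 21789 of them, several for 1621 (3 of these with a symbol of the rule), which were left out, and none for 12146. Entrez identifiers linked members to RefSeq promoters.

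Detection p-values ranked each gene's mean among the background genes and were adjusted over all 19938 genes. They could not fall below 0.000804. Alternatives were limma 3.58.1 in R 4.3.3 (a one-sided moderated test of the level minus the 95th percentile of background genes on the same array), that percentile on every array with no p, olfactory receptors alone as background, adjustment without background genes, the mean of all probe sets, median-centred arrays, each array left out, and, added after seeing the data, arrays 2 and 4 alone. Other steps used Python 3.11.15. The calculations were tested on simulated data. Precision is limited by the number of arrays.

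Members, roles and lists were chosen with earlier results of these data known. Of 188 list symbols, 17 are not analysed here. Genes named were a fixed set of 31 members, in each role the 4 called and 2 not called with the highest means, the 5 called with the largest SD, the 2 on either side of the threshold, and in each pathway list the 4 called and 2 not called with the highest means. Any other gene was chosen after its values were seen. Roles rest on symbols, and a gene can belong to several.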

Additional observations from a re-analysis of the deposited data

Results flagged for a closer look

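Of 74 named members, 9 had 1 array set apart from the other 3, by the gap to the nearest array divided by the range (above Dixon's 95% critical value). Chance alone marks about 1 in 20 groups. Array 3 was the odd one in 6 of the 9, being the highest for Cdk12 (ratio 0.971), Kif11 (0.927), Bub3 (0.885), Cdc7 (0.883) and Cdc14b (0.874) and the lowest for Cdk20 (0.837). Array 4 was lowest for Ccne2 (0.954) and Mcm4 (0.936) and highest for Cdc123 (0.848). The widest range among them was that of Cdc7, at 1.09, and the narrowest that of Kif11, at 0.25.

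Outside the genes counted above, 3 probe sets whose annotation joins several symbols, at least 1 of them of the symbol rule, lay above the highest value of the genes of other organs, at means of 7.78, 8.18 and 13.36. They name no single gene and entered no count.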

How the results depend on the processing

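Of the 148 members, 124 kept their call under each of the 11 alternatives, 67 above background and 57 not. The count of members above background, 76, was 72 to 82 when each array was left out, 69 with olfactory receptors alone as background and 91 with limma or with the 95th percentile on every array. Over all 19938 named genes the rank test called 9203, limma 10775 and the 95th percentile on every array 10864. Counts over all named genes are not given here for the other alternatives. The count above the genes of other organs, 39, was 38 to 41 under the alternatives run for it. For S, G2 and M cyclins, kinase and phosphatases the count of 0 was 1 with limma and 1 with the 95th percentile, and 0 to 1 when each array was left out. For mitotic kinesins it was 1 with limma, 1 with the 95th percentile, 1 with p adjusted without background genes, and 0 to 1 when each array was left out. The spindle checkpoint and passenger count of 4 fell to 2 with olfactory receptors alone. The causes were not tested. The median SD of called members was 0.146 to 0.154 with 1 array left out and 0.174 after centring. No paired analysis was possible because the 4 samples form a single group. Levels near 6.37 are limited by signal over background.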
